A study of Homo sapiens with 2 samples.

Results

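The 10 genes described here belong to the oxygen-sensing system of HCT116 cells, a human colorectal carcinoma line, and were chosen by gene symbol from a table of 17987 genes. They are the hypoxia-inducible factor (HIF) subunits HIF1A and EPAS1, the HIF prolyl hydroxylases EGLN1 and EGLN3, and the HIF target genes VEGFA, ADM, CA9, NDRG1, BNIP3 and BNIP3L. RNA-Seq was performed on 1 library of cells under glucose deprivation (0 mM glucose, 24 h) and 1 library of untreated cells cultured for the same time in normal medium. The cells of both libraries are labelled wild type, while the table calls them NC, the study's name for its control cells, and no change of oxygen supply is named in the labels. Neither condition was replicated, so a difference here is one between 2 libraries and carries no error.

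HIF is a pair of proteins, an oxygen-labile alpha subunit and the stable partner ARNT, and it binds a short core motif near its target genes. When oxygen is present, EGLN enzymes hydroxylate prolines of the alpha subunit with the help of oxygen and 2-oxoglutarate, the VHL ubiquitin ligase recognises the mark, and the alpha subunit is degraded. Most of this control acts on the protein, which RNA-Seq does not measure. The targets raise glycolysis, blood vessel growth, acid export and mitophagy, and EGLN3 is itself a target that feeds back on HIF. Several targets also answer to stress regulators other than HIF, and which regulator acted on a gene was not tested here.

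The table holds no expression level for either library. It gives, for 17054 genes, the authors' log2 fold change of glucose deprivation over normal medium together with the false discovery rate (FDR) and p-value of their Poisson test, which sets the reads of one library against those of the other and says nothing of how cultures vary. A positive value means higher in glucose-deprived cells. Depth is unknown, so no counting error was put on a fold change beyond the authors' Poisson test. A gene is called higher above a fold of 1.2 and lower below a log2 fold change of -0.75, the sizes that the study's methods name, each with an FDR of at most 0.001. A smaller change is thus enough for an increase than for a decrease. Over all genes the median was -0.12, and 41.5% of the values were positive. Because this is RNA of whole cultures, fewer cells expressing a gene and less RNA per cell cannot be told apart. Of 9 markers of colon epithelium 8 had a value, as did 3 of 6 markers of other cell types, but without levels the cell type could not be checked.

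VEGFA and NDRG1 stood far above the others in glucose-deprived cells, EPAS1 and BNIP3L were modestly higher, and ADM was the only one called lower. By these thresholds 4 of the 10 genes were higher, beside 15.9% of all genes with a value, and 1 was lower, beside 13.1% of all genes. The other 5 (HIF1A, EGLN1, EGLN3, CA9 and BNIP3) were neither. These shares also depend on the FDR, which was at most 0.001 for 9 of the 10 genes but for 7651 of all 17054. By size alone, with no FDR asked, 4 of the 10 were higher, beside 29% of all genes. With the same size of 0.75 on the log2 scale asked of an increase, 2 of the 10 remained higher, beside 6.85% of all genes. Positive and negative values were equally frequent, 5 of each, and the median of the 10 was -0.02. Their values spanned 3.24 on the log2 scale. For the lists and families below, the shares over all genes to set beside a count are likewise 15.9% higher and 13.1% lower.

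**Figure D1:**
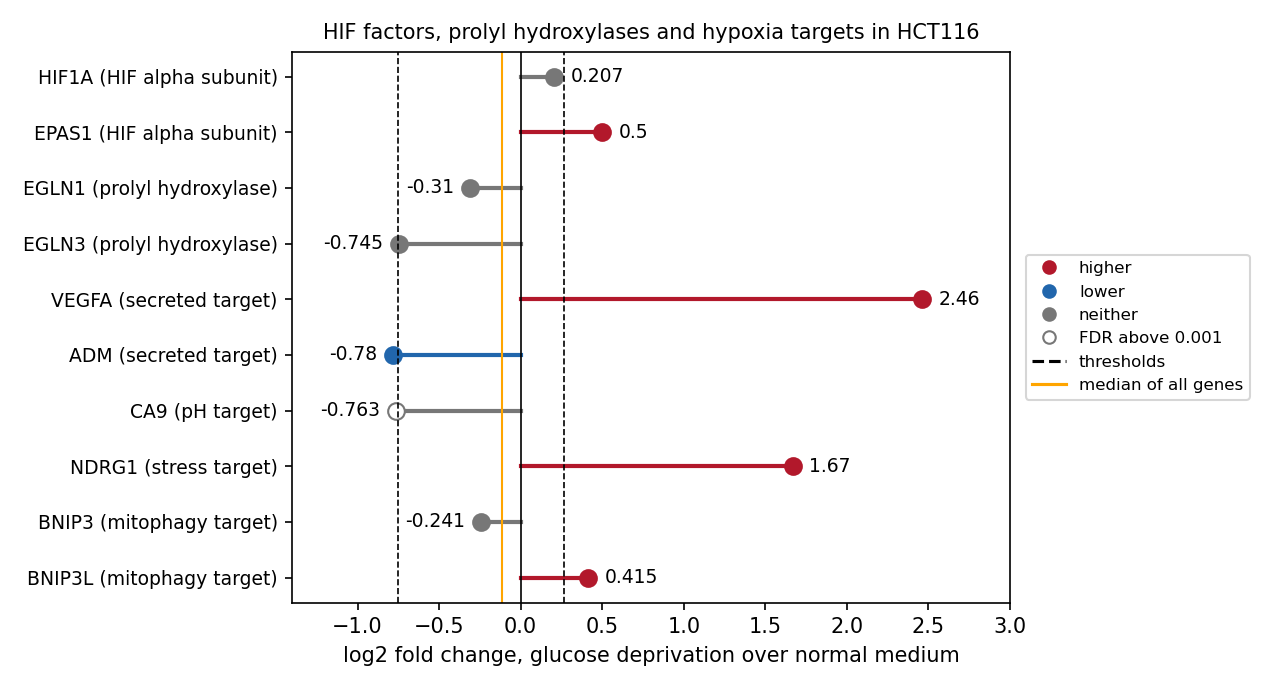
Log2 fold change of each of the 10 genes, glucose deprivation over normal medium, with 1 library per condition and no error bars. Lines start at 0, dashed lines mark -0.75 and a fold of 1.2, and an open circle marks an FDR above 0.001. VEGFA (2.46) and NDRG1 (1.67) stand apart from the other 8 genes, which lie between -0.78 and 0.50.

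Regulatory DNA is shown for the 6 genes in which a HIF core motif was found just before the start, since HIF binds such a motif. The promoter table of RefSeq (GRCh38.p14) gave windows for 7 of the 10 genes and none for VEGFA, NDRG1 and BNIP3L, and the 250 bases before each start were searched for ACGTG and GCGTG on both strands. ACGTG was found in 18.5% and GCGTG in 32.2% of all 35116 windows of that length. The share of windows with either motif was not counted. Of the 7 genes, 3 held ACGTG (EGLN1, CA9 and BNIP3), 4 held GCGTG (HIF1A in 1 of its 2 windows, EPAS1, ADM and BNIP3), and EGLN3 held neither. The windows run 5′ to 3′ along the gene, capitals mark every match on either strand, and the last base lies just before the start.
CA9 (chr9:35673678-35673927, plus strand): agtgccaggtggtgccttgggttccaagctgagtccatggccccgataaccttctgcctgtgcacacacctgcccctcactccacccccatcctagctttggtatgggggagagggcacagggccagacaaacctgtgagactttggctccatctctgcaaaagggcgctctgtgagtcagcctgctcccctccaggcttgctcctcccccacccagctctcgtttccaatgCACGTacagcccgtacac
EGLN1 (chr1:231422288-231422537, minus strand): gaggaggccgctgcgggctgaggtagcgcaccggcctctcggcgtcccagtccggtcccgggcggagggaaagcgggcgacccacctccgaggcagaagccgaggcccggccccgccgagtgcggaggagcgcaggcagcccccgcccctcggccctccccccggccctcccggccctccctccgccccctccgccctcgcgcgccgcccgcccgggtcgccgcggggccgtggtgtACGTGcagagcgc
BNIP3 (chr10:131981924-131982173, minus strand): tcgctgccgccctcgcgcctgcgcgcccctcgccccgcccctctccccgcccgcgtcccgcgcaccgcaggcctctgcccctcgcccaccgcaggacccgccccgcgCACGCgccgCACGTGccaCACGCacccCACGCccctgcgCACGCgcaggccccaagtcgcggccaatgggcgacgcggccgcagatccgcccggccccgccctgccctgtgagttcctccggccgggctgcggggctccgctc
ADM (chr11:10304823-10305072, plus strand): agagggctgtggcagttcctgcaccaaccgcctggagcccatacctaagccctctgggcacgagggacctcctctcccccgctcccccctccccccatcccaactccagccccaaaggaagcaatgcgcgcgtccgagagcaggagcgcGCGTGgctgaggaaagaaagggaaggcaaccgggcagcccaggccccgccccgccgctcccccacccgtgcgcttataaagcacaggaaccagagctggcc
EPAS1 (chr2:46297157-46297406, plus strand): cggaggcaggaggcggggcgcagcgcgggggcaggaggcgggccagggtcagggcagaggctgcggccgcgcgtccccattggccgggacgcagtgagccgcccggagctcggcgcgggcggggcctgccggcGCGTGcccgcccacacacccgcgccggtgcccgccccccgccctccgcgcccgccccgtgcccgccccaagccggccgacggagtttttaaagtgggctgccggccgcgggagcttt
HIF1A (chr14:61695263-61695512, plus strand): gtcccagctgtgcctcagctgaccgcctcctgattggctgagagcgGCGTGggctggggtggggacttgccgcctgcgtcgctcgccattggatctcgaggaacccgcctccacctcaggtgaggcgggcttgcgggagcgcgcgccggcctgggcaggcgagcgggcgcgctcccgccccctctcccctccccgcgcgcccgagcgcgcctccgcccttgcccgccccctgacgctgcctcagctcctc

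In CA9 the match lay 18 to 14 bases before the start on the opposite strand, and in EGLN1 it lay 13 to 9 bases before the start on the gene's own strand. BNIP3 carried ACGTG on both strands at one palindromic place, 134 to 129 bases before the start, with 4 matches to GCGTG on the opposite strand around it. GCGTG lay once on the gene's own strand in ADM (101 to 97 bases before the start), EPAS1 (117 to 113) and HIF1A (204 to 200). Of these 6 genes, 1 was called higher in glucose-deprived cells (beside 15.9% of all genes), 1 lower (beside 13.1%) and 4 neither. Their log2 fold changes were 0.50 for EPAS1, 0.21 for HIF1A, -0.24 for BNIP3, -0.31 for EGLN1, -0.76 for CA9 and -0.78 for ADM. A match describes these letters only, and binding of HIF was not measured.

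Among the alpha subunits, EPAS1 was higher and HIF1A did not reach the threshold. EPAS1 (gene ID 2034) encodes HIF-2 alpha and had a log2 fold change of 0.50 (1.41-fold, FDR 3.66e-16). HIF1A (gene ID 3091) encodes HIF-1 alpha and had a value of 0.21 (1.15-fold, FDR 1.9e-11), which is 0.06 short of the size asked of an increase. The value of EPAS1 thus exceeded that of HIF1A by 0.29 on the log2 scale. In the ordering of all genes, 19.6% had a larger value than EPAS1 and 31.2% a larger value than HIF1A.

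The dimer partners of the alpha subunits did not share 1 direction. ARNT, the common partner, was higher at 0.41 (1.33-fold, FDR 9.95e-11), and ARNT2, its paralog, was lower at -0.78 (1.72-fold lower, FDR 5.88e-07). HIF3A, an alpha subunit with shorter inhibitory forms, had a value of 0.46 with an FDR of 0.475. For these 5 subunits the median was 0.41, with 2 higher, 1 lower and 2 neither.

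Of the 5 oxygen sensors none was called in either direction, although 4 had negative values with an FDR of at most 0.001. EGLN3 (gene ID 112399), the hydroxylase most strongly induced by HIF, had a log2 fold change of -0.745 (1.68-fold lower, FDR 1.29e-06) and missed the threshold of -0.75 by 0.0049. EGLN1 (gene ID 54583), the main hydroxylase at normal oxygen, had a value of -0.31 (1.24-fold lower, FDR 2.23e-10). The remaining sensors were EGLN2, the third family member, at -0.68 (FDR 8.18e-14), the asparaginyl hydroxylase HIF1AN at -0.44 (FDR 2.35e-19) and the membrane hydroxylase P4HTM at 0.06 (FDR 0.735). The median of the 5 was -0.44, against -0.12 over all genes and -0.32 over 12 common reference genes. EGLN1 and EGLN3 had values 0.19 and 0.63 below the median of all genes.

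Downstream of the hydroxylases, the ligase that recognises hydroxylated HIF had 1 of 5 subunits higher and none lower. VHL, the substrate receptor, was higher at 0.54 (1.45-fold, FDR 9.48e-32). The other 4 subunits were called neither and had negative values, RBX1 at -0.52, ELOB at -0.38, ELOC at -0.30 and CUL2 at -0.25. Of 7 genes that change the stability of HIF or its hydroxylases, 5 were higher and none lower, beside 15.9% and 13.1% of all genes. OS9, a lectin of the endoplasmic reticulum also reported to bind HIF-1 alpha, led them at 1.15, before the ubiquitin ligase subunit FBXW7 at 0.71, the ligase SIAH1 at 0.64 and the deubiquitinase USP20 at 0.41. Among 5 coactivators and CITED proteins only the acetyltransferase CREBBP was higher, at 0.36, and its paralog EP300 stood at 0.18.

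**Figure D2:**
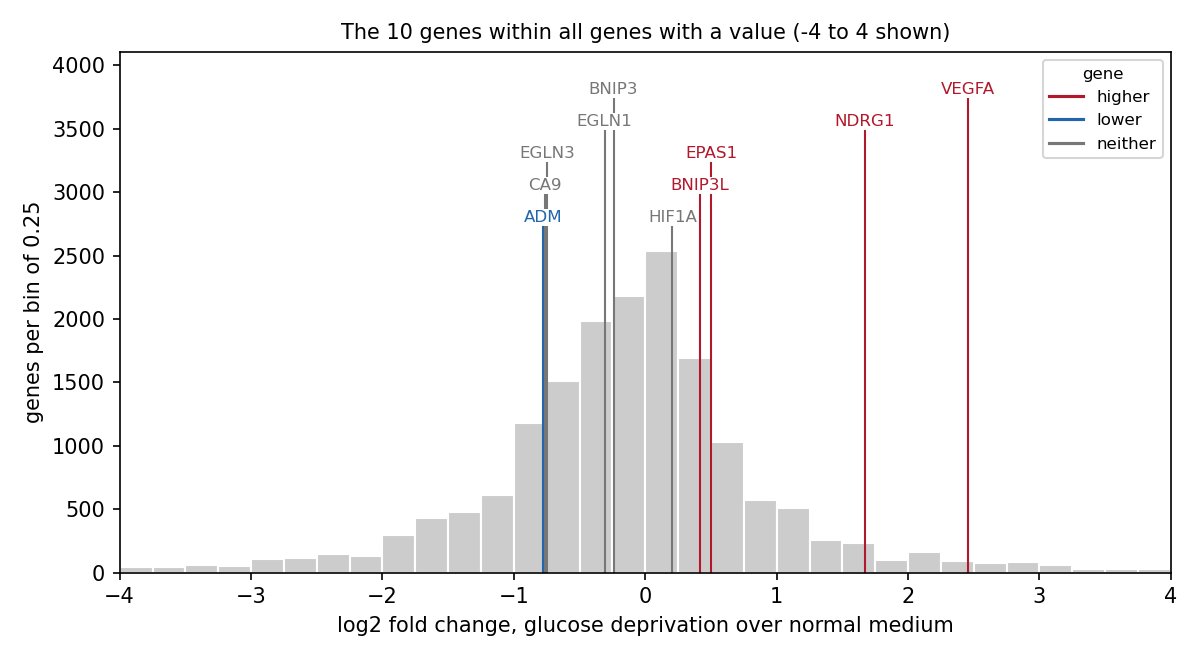
Number of genes in bins of 0.25 of the log2 fold change, glucose deprivation over normal medium, over the range from -4 to 4, with the 10 genes as vertical lines whose height carries no meaning. ADM, CA9 and EGLN3 lie side by side near -0.75 and only ADM is called lower, whereas NDRG1 and VEGFA lie in the upper tail.

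The secreted targets moved in opposite directions. VEGFA (gene ID 7422), the main growth factor for blood vessels, was 5.50-fold higher in glucose-deprived cells (log2 fold change 2.46, FDR listed as 0), and 2.31% of all genes had a larger value. ADM (gene ID 133), the vasodilator peptide adrenomedullin, was 1.72-fold lower (-0.78, FDR 7.72e-15) and lay 0.03 beyond the threshold. The 2 values differ by 3.24 on the log2 scale, the whole span of the 10 genes.

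Other secreted targets were also found in both directions. STC2, a stanniocalcin, was higher at 2.35, as were the growth factor subunit PDGFB at 1.85 and the lipase inhibitor ANGPTL4 at 1.06. ANG, the ribonuclease angiogenin, was lower at -1.17 and the cytokine MIF at -0.78. Of the 13 genes in this group 5 were higher, 3 lower and 5 neither, with a median of -0.53. That median is the value of EPO, and all 5 called neither failed the FDR. Over the genes of the group with an FDR of at most 0.001 the median was 1.46. EPO (-0.53, FDR 0.755) and EDN1 (-0.54, FDR 0.811) had folds that equal ratios of whole numbers of at most 20, and both failed the FDR.

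CA9 (gene ID 768), the cell surface carbonic anhydrase used as a marker of hypoxia, had a log2 fold change of -0.76 (1.70-fold lower) but an FDR of 0.0946, the only one of the 10 genes above 0.001. It passed the size by 0.01 and was called neither. The gene overlaps ARHGEF39 on the opposite strand in GENCODE v29, which was 3.22-fold lower (-1.69, FDR 3.25e-57). Use of strand in counting is not given in the sources used here, so reads from the exons they share cannot be told apart, and their part in the value of CA9 was not tested. CA12, the second hypoxia-induced surface carbonic anhydrase, was lower at -1.94 (3.85-fold, FDR 3.5e-13). The lactate exporter SLC16A3 had a value of -0.43 and was called neither.

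NDRG1 (gene ID 10397), a stress and differentiation protein induced by hypoxia, was 3.18-fold higher (log2 fold change 1.67, FDR listed as 0), and 4.58% of all genes had a larger value. It lay 2.43 above CA9 on the log2 scale. In its group of targets that act in growth, lipid and glycogen metabolism, 6 of 13 genes were higher and 2 lower, with a median of -0.12. Over the genes of the group with an FDR of at most 0.001 the median was 0.54. DDIT4, an inhibitor of mTORC1 signalling, was 7.16-fold higher (2.84), and the circadian repressor BHLHE40 (1.35), the glycogen branching enzyme GBE1 (0.56) and the sterol regulator INSIG2 (0.55) were higher as well. AK4, a mitochondrial adenylate kinase, was lower at -1.10 and the lipid droplet protein HILPDA at -0.97.

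The mitophagy receptors BNIP3 and BNIP3L, which are paralogs on the outer mitochondrial membrane, had values of opposite sign. BNIP3L (gene ID 665) was higher at 0.41 (1.33-fold, FDR 7.21e-26). BNIP3 (gene ID 664) had a value of -0.24 (1.18-fold lower, FDR 0.000105) and was called neither. The difference between them was 0.66 on the log2 scale. GENCODE v29 lists 39 pseudogenes named after BNIP3, none of which is in the table, and how reads shared with them were counted is not given in the sources used here. BNIP3L shares exon sequence with PNMA2 on the opposite strand, and PNMA2 had a value of -0.62 with an FDR of 0.0138. HIF1A and VEGFA likewise overlap RNA genes (HIF1A-AS1 and AL136131.3) that have no value here. Of 8 mitophagy and mitochondrial targets 3 were higher and none lower. The others that were higher were NDUFA4L2, a subunit induced in hypoxic mitochondria (2.32, a fold of exactly 5 and thus coarse), and the protease LONP1 (0.79). PDK1, the kinase that inhibits pyruvate dehydrogenase, stood at 0.13 with an FDR of 0.0107.

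**Figure D3:**
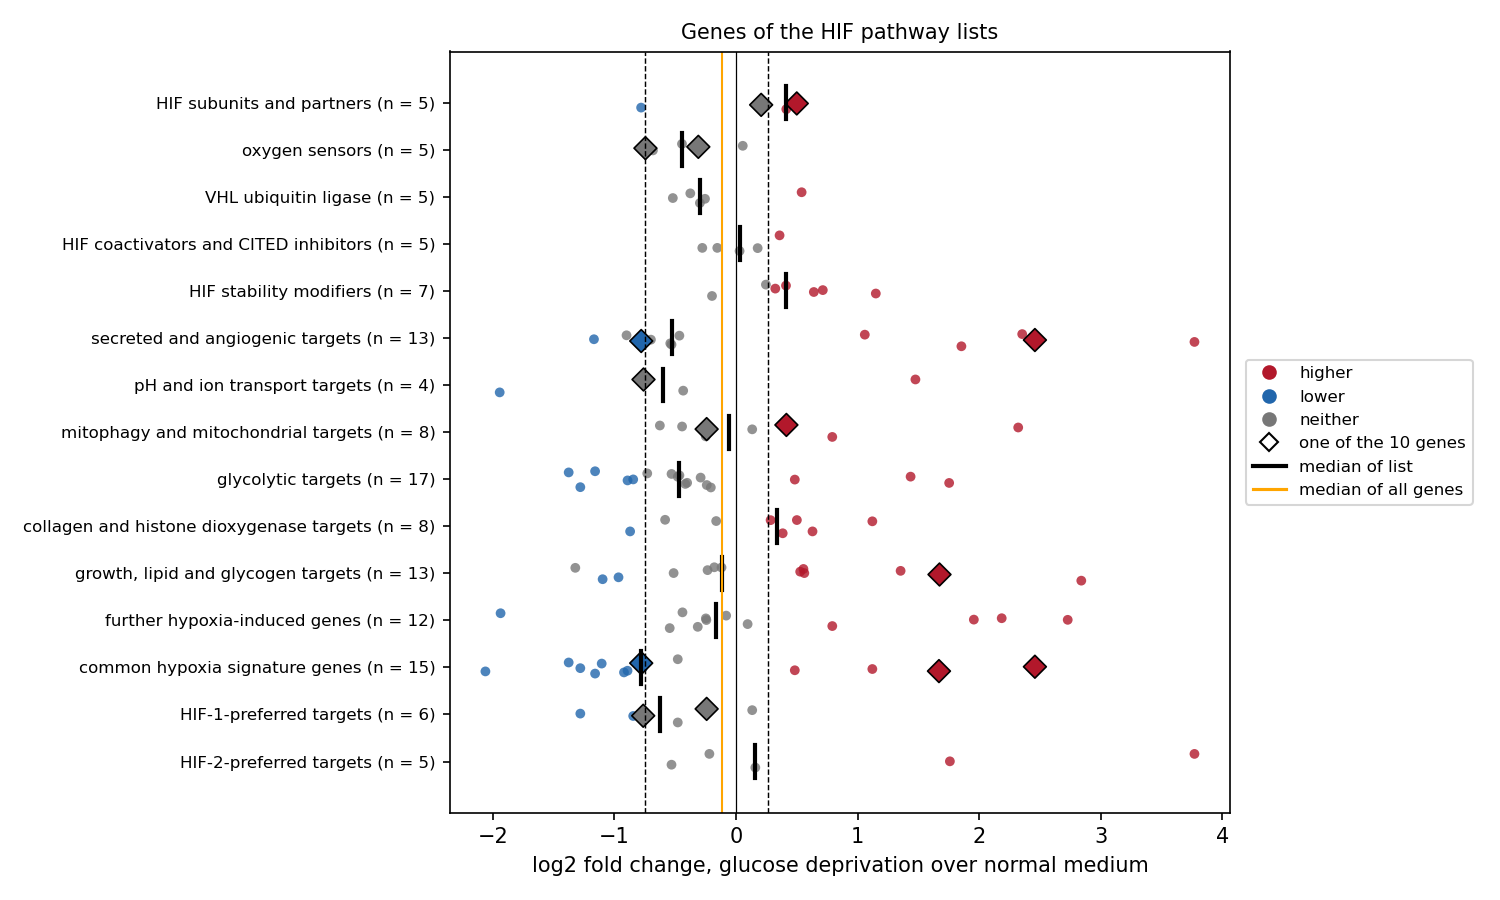
Log2 fold change of the genes of 15 HIF pathway lists, glucose deprivation over normal medium, with 1 point per gene, diamonds for the 10 genes and a thick bar for the median of each list. Some genes stand in several lists, and points are spread vertically only for legibility. Glycolytic targets lie mostly left of 0 with a median of -0.47, and the median of the oxygen sensors is -0.44.

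Of 101 further genes on these lists 99 had a value, and 33 were higher (33.3%, beside 15.9% of all genes) and 17 lower (17.2%, beside 13.1%). Their median was -0.23. An FDR of at most 0.001, which every call needs, was reached by 78 of the 99 but by 7651 of all 17054 genes. The shares on the 2 sides are thus not on an equal footing. Among genes with such an FDR, 33 of 78 were higher, beside 2706 of 7651 over all genes. On that footing 17 of 78 were lower, beside 2231 of 7651, so the lower share was smaller than over all genes. The glycolytic enzymes and transporters, a classical HIF target group, numbered 17, of which 5 were lower and 3 higher around a median of -0.47. Beside it stand -0.12 over all genes and -0.32 over the 12 reference genes. The lower ones were the mutase PGAM1 (-1.38), lactate dehydrogenase LDHA (-1.28), the isomerase TPI1 (-1.16), enolase ENO1 (-0.89) and the kinase PGK1 (-0.85). The higher ones were the glucose transporters SLC2A3 (1.75) and SLC2A1 (0.48) and hexokinase HK2 (1.44). Apart from these 3, all 14 genes of the group, the 5 lower ones included, had negative values.

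Collagen and histone dioxygenases, which like the EGLN enzymes use oxygen and 2-oxoglutarate, had 5 of 8 genes higher and 1 lower, with a median of 0.33. P4HA1, a collagen prolyl hydroxylase, led at 1.12, followed by P4HA2 (0.63), the histone demethylases KDM4C (0.50) and KDM3A (0.38) and, close to the threshold, KDM4B (0.28). The collagen lysyl hydroxylase PLOD2 was lower at -0.87. Among 12 further hypoxia-induced genes 4 were higher and 1 lower. These were the heme-degrading enzyme HMOX1 (2.73), the transcription factor MAFF (2.19), ANKRD37 (1.96), WSB1 (0.79) and, in the other direction, the chemokine receptor CXCR4 (-1.94).

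A list of 15 genes that recur in published hypoxia signatures, 3 of the 10 genes among them, had a median of -0.78, and 10 were lower and 4 higher. The 4 higher ones were VEGFA, NDRG1, P4HA1 and SLC2A1. The lower ones included the cell cycle phosphatase CDKN3 (-2.06), PGAM1, LDHA and TPI1, so the list holds genes of cell division and glycolysis besides oxygen sensing. Without the 3 genes the median was -0.91, with 9 of 12 lower and 2 higher. Targets known from renal carcinoma cells to prefer HIF-1 had 2 of 6 genes lower and none higher, with a median of -0.62, and the lower ones were LDHA and PGK1. Those known to prefer HIF-2 had 2 of 5 higher and none lower, with a median of 0.16, and the growth factor TGFA (1.76) was among the higher ones. That median is the value of a gene with an FDR of 0.47, and only 3 of the 5 had an FDR of at most 0.001. The HIF-1 list holds CA9 and BNIP3 of the 10 genes, and its LDHA, PGK1 and ALDOA are also among the glycolytic targets.

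The scaling of the libraries bore on the smaller values. Of 12 common reference genes, whose values ran from -0.96 to 0.62, the median was -0.32. Centred on that median, EGLN1 stood at 0.010 and BNIP3 at 0.079, so the sign of both changed, and HIF1A stood at 0.53 and would be called higher. ADM was no longer lower, at -0.46, nor was it when centred on the median of all genes (-0.66). The directions of VEGFA, NDRG1, EPAS1, BNIP3L, EGLN3 and CA9 were the same under both centrings.

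**Figure D4:**
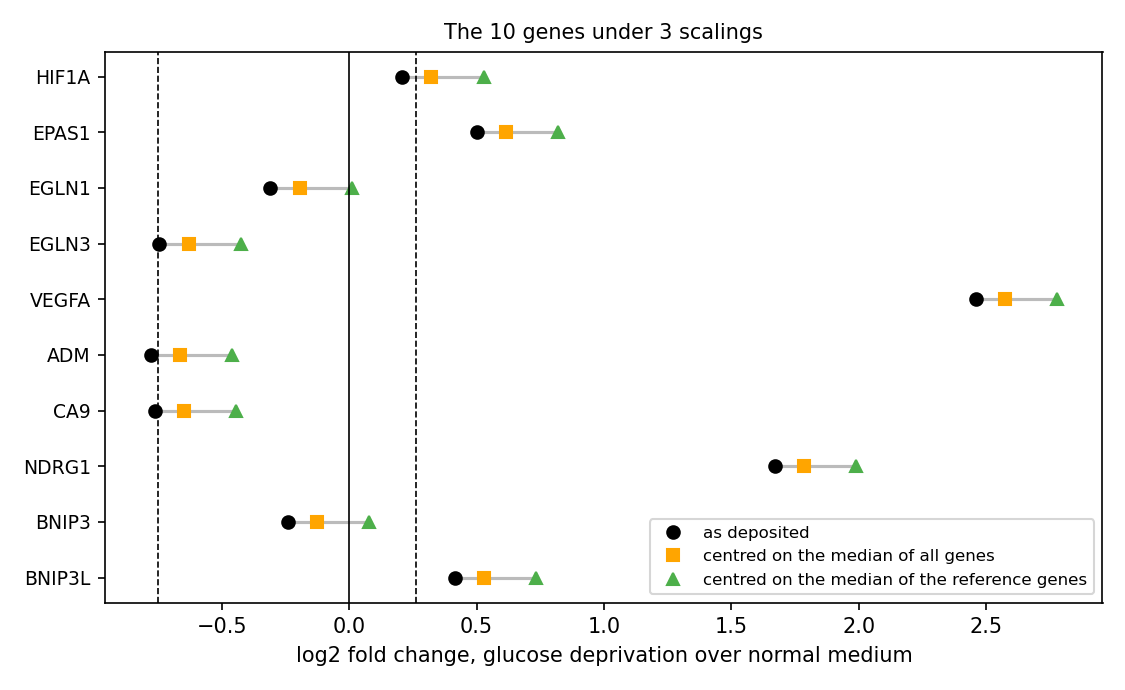
Log2 fold change of the 10 genes, glucose deprivation over normal medium, as deposited and after centring on the median of all genes or of 12 reference genes. Dashed lines mark -0.75 and a fold of 1.2. Centring moves every gene to the right by the same amount, and ADM and CA9 then lie above -0.75 while HIF1A passes a fold of 1.2.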

How the data were processed

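RNA-Seq of HCT116 cells was analysed from a table of the whole series, with 1 library per condition. The paper names MGI2000 sequencing, Bowtie mapping to mm10 and RSEM, but Bowtie2, BWA and hg19 stand in the submitters' processing notes. Versions are not given in the sources used here. The IDs are human, since 17705 of 17987 matched RefSeq.

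The log2 fold change of each gene was made by the authors from the expression values of both libraries and deposited. The deposited p-value comes from the authors' Poisson test. The FDR they deposited was handled as a score, since 501 values exceed 1. These columns are the authors' own comparison and the only measurements in the table, so they are printed as the authors' values and no test was added. No fold change is listed for 933 genes, and they enter no count. Direction was read from the column name and from the study's list of 41 downregulated candidates, all negative here.

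The 10 genes and the pathway lists were chosen with earlier results of these data known. Named are the 10 genes, all HIF subunits, oxygen sensors and VHL ligase subunits, and the up to 4 largest changes in each direction of every other list among genes past the thresholds. Further genes that were named (EP300, EPO, EDN1, ANGPTL4, INSIG2, SLC16A3, PDK1, KDM4B, ARHGEF39, PNMA2 and those of the closing families) were picked for comparison, some after their values were seen. Some genes that the rule names are not reported here. All list genes in the table matched by exact symbol. The counting of calls was tested on simulated data, which bears on the arithmetic and not on the unreplicated values. A planned search of HIF proteins for the hydroxylation motif was not made, since no protein sequences were used here. Overlapping genes were taken from GENCODE v29. Alternatives were 2 centrings, 4 other thresholds, exact symbols and lists restricted by FDR. Python 3.11.15, numpy 2.4.6, pandas 2.3.3 and matplotlib 3.10.9 were used.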

Additional observations from a re-analysis of the deposited data

How the results depend on the processing

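No replicate can be left out and no depth is known, so stability can only be read from scaling and thresholds. Centring on the median of all genes gave 0.32 for HIF1A, now past the size asked of an increase, and -0.66 for ADM, no longer past -0.75. It left 0 of the 10 genes lower (10.7% of all genes) and 5 higher (17.1%), and turned the sign of the medians of the 10 genes (0.10) and of mitophagy targets (0.061). Centring on the reference genes gave 0.53 for HIF1A, -0.46 for ADM, 0.010 for EGLN1 and 0.079 for BNIP3, with 0 of the 10 lower (7.65% of all genes) and 5 higher (17.4%). By size alone 2 were lower, with CA9 added (22.3% of all genes), and 4 were higher (29%). At a fold of 1.2 in both directions 3 were lower (25.6% of all genes), at 0.75 in both directions 2 were higher (6.85%), and at 1 in both directions 0 were lower (8.59%) and 2 higher (4.61%). With only genes at an FDR of at most 0.001 the median turned positive for the 10 genes (0.21), secreted targets (1.46), growth, lipid and glycogen targets (0.54) and further hypoxia-induced genes (0.79), and rose to 1.76 for HIF-2-preferred targets. Most of the genes thereby left out of these lists had negative values. Restricting to exact symbols removed no gene, since all had matched that way, and so tested nothing. No paired analysis was possible because neither condition has a second library.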

Other observations

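The relatives of the 10 genes were listed after the first results had been seen, and they had values that differed widely within each family. Among the VEGF ligands only VEGFA was called, since VEGFB (-0.09, FDR 0.355), VEGFD (-1.23, FDR 0.0607) and PGF (-0.70, FDR 0.00196) did not pass, and VEGFC is listed without a value. Of the VEGF receptors the co-receptor NRP1 was 8.46-fold higher in glucose-deprived cells (log2 fold change 3.08, FDR 1.31e-73), whereas FLT1, KDR, FLT4 and NRP2 did not pass the FDR. In the NDRG family NDRG1 was the only gene with a positive value, and NDRG2 was lower at -1.80 (3.49-fold, FDR 1.44e-35), with NDRG3 at -0.58 and NDRG4 at -0.67. ADM2, the second adrenomedullin peptide, was 4.35-fold higher (2.12, FDR 2.92e-73) where ADM was 1.72-fold lower, and RAMP1, a receptor subunit for the related peptide CGRP, had a value of -0.65.

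Of 13 carbonic anhydrases with a value 3 were lower and 2 higher. CA12 (-1.94), CA8 (-1.78) and CA2 (-0.90) were lower, and the mitochondrial CA5B (0.89) and the catalytically inactive relative CA11 (0.41) were higher. Of 10 mitophagy receptors and regulators 5 were higher and none lower, beside 15.9% and 13.1% of all genes. An FDR of at most 0.001 was reached by 9 of the 10, but by 7651 of all 17054 genes. CALCOCO2 (1.07), BCL2L13 (1.04) and OPTN (0.94), which link damaged mitochondria to autophagosomes, had larger values than BNIP3L (0.41), and the kinase PINK1 stood at 0.35.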
